A study of Mus musculus with 12 samples.

Results

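The genes examined here encode the Wnt ligands, the receptors that bind them and the secreted proteins that keep ligand and receptor apart, measured by RNA sequencing in gonadal white adipose tissue. The mice were of the inbred strain C57BL/6N. They were chosen by symbol: Wnt, Fzd, Sfrp, Dkk or Rspo followed by a number (or Dkkl), and Lrp5, Lrp6, Wif1, Frzb, Ror1, Ror2, Ryk, Axin2, Lgr4, Znrf3 and Rnf43. Of 32772 genes in the 2 deposited count tables, 52 met this rule. They were 17 Wnt ligands, 10 Frizzled receptors, 5 co-receptors and other receptors, 10 secreted antagonists, 7 genes of the R-spondin axis, Axin2, and 2 genes annotated opposite to members (Fzd10os and Rspo4os). All 52 were listed in the table of HFD and Chow libraries and 48 in that of HFD PCN and HFD Vehicle libraries, so Rspo2, Wnt10a, Wnt7a and Wnt8a were not analysed with PCN.

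There were 4 groups of 3 libraries. HFD PCN mice were fed a high-fat diet (HFD) for 18 weeks from 6 weeks of age and then received intraperitoneal PCN at 50 mg/kg daily for 4 days. PCN is a steroid agonist of the mouse pregnane X receptor, a nuclear receptor known for switching on drug metabolism in liver. HFD Vehicle mice had the same diet and vehicle (30% DMSO) on the same schedule. HFD mice had the diet and Chow mice regular chow, also for 18 weeks from 6 weeks of age, with no injection given in the labels. The labels give neither sex nor age at sampling, and do not say that each library is a separate animal.

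Wnt proteins are lipid-modified secreted ligands that bind Frizzled receptors on the cell surface. With the co-receptors Lrp5 or Lrp6 they keep beta-catenin from being degraded, so that it enters the nucleus and acts with TCF/LEF factors, while Ror and Ryk receptors serve branches that do not use beta-catenin. R-spondins, bound by Lgr receptors, remove the ubiquitin ligases Znrf3 and Rnf43 that clear Frizzled receptors from the membrane. Secreted frizzled-related proteins (Sfrp, Frzb) and Wif1 bind the ligands, and Dickkopf proteins such as Dkk1 block Lrp5 and Lrp6. In adipose tissue, beta-catenin signalling is known for holding progenitors back from becoming adipocytes.

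Libraries held 11090117 to 27408092 counts, and each of the Chow libraries had fewer than each of the HFD libraries. Levels are in CPM, the reads of a gene per fixed number of reads in its library, scaled over the 12 libraries, and values are listed in the order HFD PCN 5, 11 and 27, HFD Vehicle 23, 50 and 55, HFD 4, 30 and 38, and Chow 8, 17 and 19. Tests used scaling within each comparison; in the median gene the printed levels place HFD above Chow by 0.12 more on the log2 scale than the fitted fold changes do. Duodenum stands as the source in the sample labels, but 5 adipocyte markers summed to 4593 to 15590 CPM, while intestinal epithelial markers summed to at most 3.04 CPM, over the 4 of 5 listed in both tables. HFD Vehicle 50 stood apart from its group, where the macrophage gene Adgre1 had 65.8 CPM while HFD Vehicle 23 and 55 had 914 and 911 CPM, so results of its group are also given without it. Gene coordinates are those of GRCm38, counted from 1.

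Per kilobase of exon, which allows levels of different genes to be compared within a library, Sfrp5 and Fzd4 led in every group, with mean levels of 114 and 60.05 CPM per kb in HFD PCN, 85.6 and 49.3 in HFD Vehicle, 33.4 and 30.00 in HFD, and 80.6 and 96.3 in Chow. Lrp6, Fzd1, Ryk, Lgr4, Lrp5, Fzd7 and Fzd5 had mean levels between 3.28 and 22.8 CPM per kb over the groups. Ligands were low: the highest, Wnt5a, averaged 2.15 CPM per kb in HFD PCN, 2.12 in HFD Vehicle, 1.405 in HFD and 2.52 in Chow.

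The diet comparison set HFD against Chow, and 33 of the 52 members had enough reads to be tested. With edgeR's quasi-likelihood test and Benjamini-Hochberg adjustment over 16216 genes at 0.05, 8 members were higher in HFD (29.8% of all genes tested were) and 14 were lower (30% of all genes were), so 22 passed against 59.8% of all genes in either direction. At an unadjusted p of 0.05, 24 were reached (64.2% of all genes). HFD and Chow values did not overlap in 9 members that were higher (34.6% of all genes) and 14 that were lower (33.9% of all genes). The median log2 fold change was -0.43 against -0.03 over all genes. A member tested because it was high in 1 group had to differ, so these counts describe the 33 and not the 52. The lower calls were 5 ligands, 4 Frizzled receptors, Lrp5, Lgr4, Znrf3, the target Axin2 and the antagonist Sfrp5. The higher calls were the receptors Fzd7, Fzd1, Fzd5 and Ror1, the ligand Wnt2 and the antagonists Sfrp1, Dkk3 and Frzb. These are levels in whole tissue, where fewer cells of a type and less RNA per cell cannot be told apart.

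**Figure D1:**
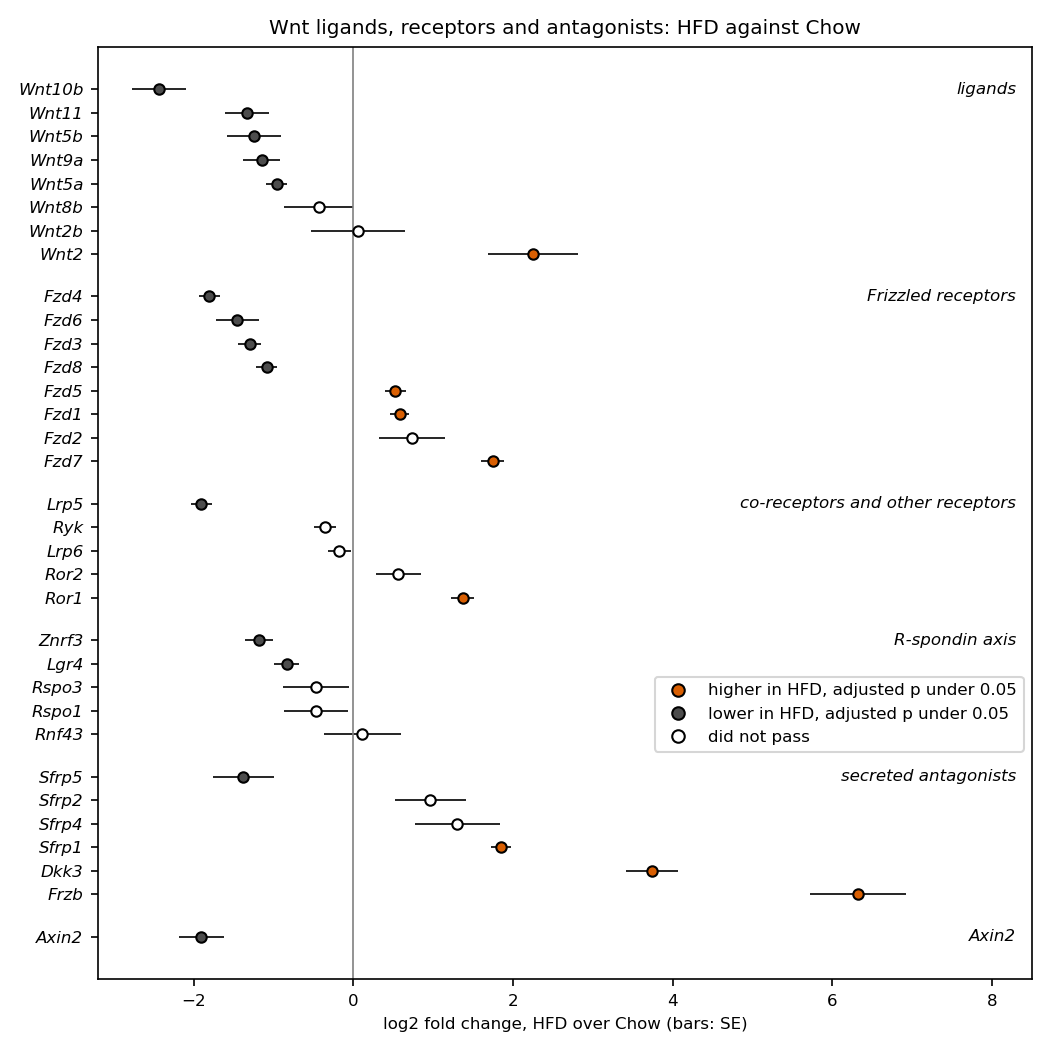
Log2 fold change (HFD over Chow) of the 33 tested members, grouped by role, with SE bars; 3 libraries per group. Filled points passed an adjusted p of 0.05: 14 lie left of 0, among them Wnt10b, Lrp5, Axin2 and Fzd4, and 8 lie right of 0, among them Frzb, Dkk3, Wnt2, Sfrp1 and Fzd7. The point of Frzb rests on 1 read in the 3 Chow libraries.

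Of the 8 tested ligands, 5 fell and 1 rose in HFD, so 75% passed in either direction against 59.8% of all genes. Wnt10b, with 6, 7 and 5 reads in HFD 4, 30 and 38, entered the test only through its Chow level. Wnt2, with 7, 4 and 0 reads in Chow 8, 17 and 19, entered only through its HFD level. A difference was thus built into both tests. Wnt5a, a ligand best known for signalling without beta-catenin, was at 12.01, 23.03 and 15.5 CPM in HFD PCN, 15.8, 25.05 and 8.91 CPM in HFD Vehicle, 10.3, 12.1 and 10.5 CPM in HFD and 22.3, 17.6 and 19.2 CPM in Chow. All HFD libraries were below all Chow libraries (log2 fold change -0.96, SE 0.13, adjusted p = 0.000439). Wnt10b, which restrains adipocyte formation through beta-catenin, was at 0.296, 0.745 and 0.112 CPM in HFD PCN, 0.199, 1.91 and 0.0543 CPM in HFD Vehicle, 0.223, 0.251 and 0.299 CPM in HFD and 1.46, 1.38 and 0.981 CPM in Chow. Its HFD and Chow values did not overlap, its HFD level was 5.42-fold lower (log2 fold change -2.44, SE 0.34, adjusted p = 0.000456), and among injected mice the highest value was in HFD Vehicle 50.

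Wnt11 was at 3.58, 8.94 and 4.56 CPM in HFD PCN, 3.63, 11.2 and 1.96 CPM in HFD Vehicle, 2.53, 3.88 and 2.15 CPM in HFD and 7.61, 7.14 and 5.23 CPM in Chow. It is a ligand of cell movement and planar polarity, and its HFD values lay below its Chow values (log2 fold change -1.33, SE 0.27, adjusted p = 0.00329). Wnt9a was at 1.404, 2.82 and 1.799 CPM in HFD PCN, 1.79, 3.13 and 1.14 CPM in HFD Vehicle, 1.38, 1.795 and 1.86 CPM in HFD and 3.51, 3.22 and 3.49 CPM in Chow, again without overlap between HFD and Chow (log2 fold change -1.15, SE 0.23, adjusted p = 0.00318). Wnt5b, a close relative of Wnt5a, was at 0.924, 2.82 and 2.36 CPM in HFD PCN, 1.28, 4.44 and 0.7605 CPM in HFD Vehicle, 1.56, 1.04 and 0.838 CPM in HFD and 3.36, 2.46 and 1.74 CPM in Chow. It passed by a smaller margin (log2 fold change -1.25, SE 0.34, adjusted p = 0.0126) and did not pass without HFD 30 (adjusted p = 0.0567) or HFD 38 (adjusted p = 0.0532). In a fit of all 12 libraries Wnt10b, Wnt11 and Wnt5b did not pass, with adjusted p of 0.0593, 0.085 and 0.134.

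Wnt2 (chromosome 6, 17988940 to 18030585) was the ligand that rose in HFD. It was at 0.406, 0.958 and 0.225 CPM in HFD PCN, 0.359, 0.261 and 0.272 CPM in HFD Vehicle, 1.23, 1.94 and 1.56 CPM in HFD and 0.512, 0.307 and 0 CPM in Chow. Each HFD library exceeded each of the 9 others, and against Chow the level was 4.75-fold higher (log2 fold change 2.25, SE 0.57, adjusted p = 0.00913). Wnt2b, its nearest relative, was at 0.479 to 3.3 CPM in HFD and 1.2 to 2.71 CPM in Chow. It spread widely and its test did not pass (log2 fold change 0.06, SE 0.59, adjusted p = 0.938), nor did Wnt8b, which stayed at 1.53 CPM or less in every library (log2 fold change -0.43, SE 0.43, adjusted p = 0.4101).

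Of the 8 tested Frizzled receptors, 4 fell and 3 rose, so 87.5% passed in either direction against 59.8% of all genes. Fzd4, the most abundant Frizzled gene here and the receptor of both Wnt ligands and norrin in blood vessels, lies on chromosome 7, 89404355 to 89413134. It was at 282, 503 and 426 CPM in HFD PCN, 311, 444 and 239 CPM in HFD Vehicle, 219, 198 and 188 CPM in HFD and 673, 597 and 671 CPM in Chow. The HFD libraries lay lowest and the Chow libraries highest of the 4 groups, 3.49-fold apart (log2 fold change -1.80, SE 0.13, adjusted p = 2.02e-05). Fzd7, a receptor known from stem and progenitor cells, was at 56.6, 35.00 and 35.3 CPM in HFD PCN, 49.7, 16 and 60.2 CPM in HFD Vehicle, 53.1, 59.4 and 49.7 CPM in HFD and 12.6, 15.04 and 17.01 CPM in Chow. All HFD libraries were above all Chow libraries, 3.34-fold (log2 fold change 1.74, SE 0.15, adjusted p = 4.15e-05), and HFD Vehicle 50 was within the Chow range.

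Fzd3, a receptor of axon guidance and planar polarity, was at 5.504, 7.93 and 6.24 CPM in HFD PCN, 5.66, 6.697 and 3.802 CPM in HFD Vehicle, 6.25, 5.53 and 5.803 CPM in HFD and 12.9, 14.1 and 12.8 CPM in Chow. Fzd8 was at 7.76, 12.02 and 9.73 CPM in HFD PCN, 7.22, 12.7 and 7.01 CPM in HFD Vehicle, 7.101, 6.104 and 6.76 CPM in HFD and 13.8, 12.2 and 13.1 CPM in Chow. Fzd6, which like Fzd3 works in planar polarity, was at 8.201, 8.72 and 8.04 CPM in HFD PCN, 7.46, 8.78 and 4.18 CPM in HFD Vehicle, 4.83, 5.42 and 4.55 CPM in HFD and 12.8, 7.83 and 17.1 CPM in Chow. In each of these 3 the HFD libraries lay below the Chow libraries, with log2 fold changes of -1.30 for Fzd3, -1.09 for Fzd8 and -1.46 for Fzd6. Their adjusted p were 0.00013, 0.000273 and 0.00208, in that order.

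Fzd1 was at 76.6, 56.9 and 54.2 CPM in HFD PCN, 57.6, 32.8 and 60.5 CPM in HFD Vehicle, 59.6, 57.99 and 58.4 CPM in HFD and 42.3, 35.4 and 30.5 CPM in Chow. It was 1.49-fold higher in HFD with no overlap (log2 fold change 0.58, SE 0.12, adjusted p = 0.00332). Fzd5 was 1.44-fold higher (log2 fold change 0.53, SE 0.13, adjusted p = 0.00948), with the limit that 17.8% of its exon bases overlap Gm38058. Fzd2 did not pass (log2 fold change 0.73, SE 0.41, adjusted p = 0.153), and Fzd9 and Fzd10 had too few reads to be tested.

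The make-up of the Frizzled family therefore differed between diets. Fzd4 made up 44.5 to 48.5% of the family's CPM per kb in HFD libraries against 80.8 to 82.0% in Chow libraries. In HFD PCN 5, 11 and 27 its share was 49.9, 69.7 and 65.3%, and in HFD Vehicle 23, 50 and 55 it was 56.4, 75.6 and 47.9%. Fzd7 made up 17.4 to 19.8% in HFD and 2.25 to 3.08% in Chow, and Fzd1 20.8 to 22.2% in HFD and 5.98 to 8.16% in Chow. The summed level of the 10 genes was 62.8 to 67.2 CPM per kb in HFD against 110 to 123 CPM per kb in Chow. Among ligands the share of Wnt5a was between 26.2 and 39.2% in every library.

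**Figure D2:**
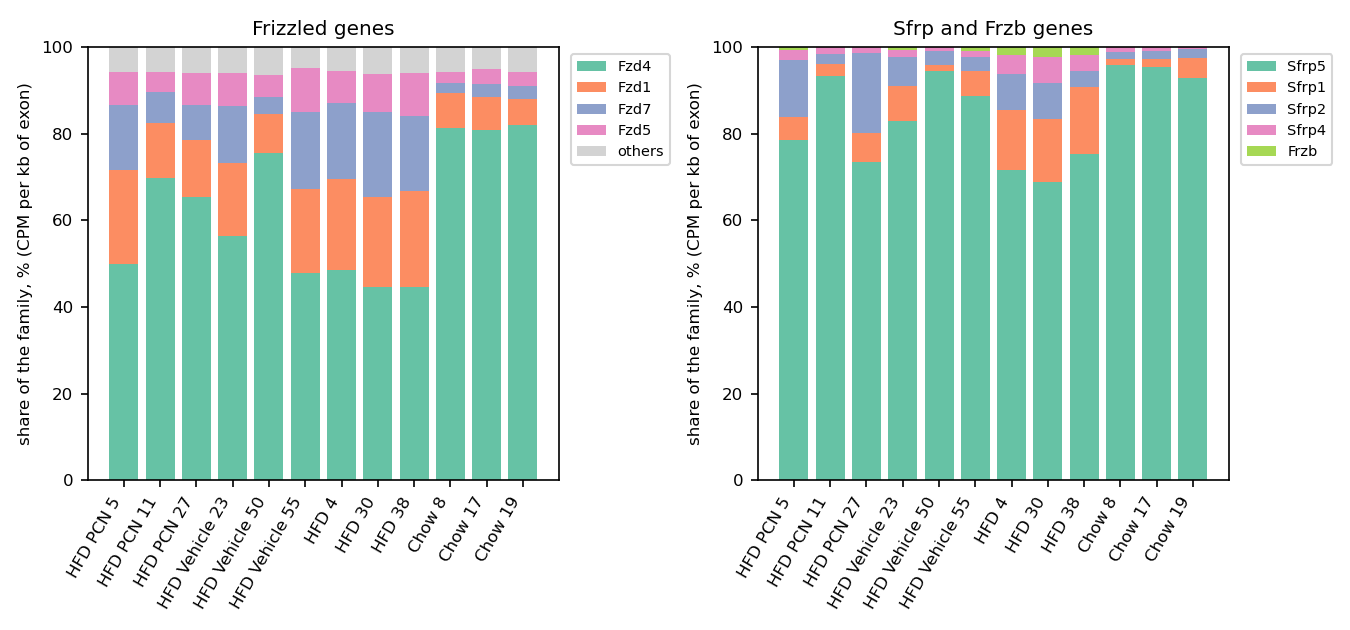
Share of each gene in the summed CPM per kb of exon of the 10 Frizzled genes (left) and of Sfrp1, Sfrp2, Sfrp4, Sfrp5 and Frzb (right), 1 bar per library. Fzd4 fills 44.5 to 48.5% of the bar in HFD and 80.8 to 82.0% in Chow libraries, and Sfrp5 68.8 to 75.4% in HFD and 92.9 to 95.8% in Chow libraries.

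Endothelial markers moved with Fzd4. The 4 genes of that list (Pecam1, Cdh5, Kdr and Tie1, none at 0 in any library) summed to 306 to 324 CPM in HFD and 819 to 867 CPM in Chow, and all 4 were called lower in HFD. The 5 adipocyte markers (none at 0) summed to 5213 to 6766 CPM in HFD and 11200 to 15590 CPM in Chow, and 5 of 5 were called lower. The 4 macrophage markers (none at 0) summed to 2864 to 3092 CPM in HFD and 254 to 524 CPM in Chow, and 4 of 4 were called higher. Over all genes tested, 29.8% were called higher and 30% lower. The part of the marker shifts in the results for the members was not tested.

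Upstream sequence is shown for Fzd7, which was higher in HFD, and for Fzd4, the ligand Wnt11 and Axin2, which were lower. The Axin2 gene is a known target of beta-catenin and TCF/LEF factors. Each line gives the 250 bases before the gene start in RefSeq (GRCm38.p6), 5′ to 3′ on the gene's own strand, with the TCF/LEF heptamer CTTTGNN, in which each N stands for A or T and which was sought on both strands, in capitals.
Fzd7 (chr1:59481897-59482146, plus strand): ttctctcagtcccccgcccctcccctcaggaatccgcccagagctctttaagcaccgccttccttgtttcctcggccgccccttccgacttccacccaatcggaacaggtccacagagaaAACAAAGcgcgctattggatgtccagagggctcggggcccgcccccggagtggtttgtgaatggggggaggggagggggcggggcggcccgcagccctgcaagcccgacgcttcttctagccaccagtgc
Wnt11 (chr7:98834862-98835111, plus strand): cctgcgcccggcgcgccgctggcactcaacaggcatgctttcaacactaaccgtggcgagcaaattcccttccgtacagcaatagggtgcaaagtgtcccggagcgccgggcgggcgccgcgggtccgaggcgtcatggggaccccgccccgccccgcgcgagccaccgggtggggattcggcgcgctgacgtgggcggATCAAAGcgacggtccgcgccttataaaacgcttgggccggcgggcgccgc
Fzd4 (chr7:89404116-89404365, plus strand): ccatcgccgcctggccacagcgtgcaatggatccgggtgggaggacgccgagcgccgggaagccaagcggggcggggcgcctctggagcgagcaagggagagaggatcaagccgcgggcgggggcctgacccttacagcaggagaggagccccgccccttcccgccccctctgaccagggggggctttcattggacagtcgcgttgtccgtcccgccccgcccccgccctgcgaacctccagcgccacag
Axin2 (chr11:108920099-108920348, plus strand): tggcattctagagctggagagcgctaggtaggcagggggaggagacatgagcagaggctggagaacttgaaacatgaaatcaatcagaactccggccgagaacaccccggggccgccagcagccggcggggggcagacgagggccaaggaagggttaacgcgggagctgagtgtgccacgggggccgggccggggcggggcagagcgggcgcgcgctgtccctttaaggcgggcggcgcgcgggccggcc
One heptamer each stood in the windows of Fzd7 (first base 130 bases upstream of the start) and of Wnt11 (51 bases upstream), and none in those of Fzd4 and Axin2. RefSeq has a second start for Wnt11, whose window (chr7:98838595-98838844) held none. RefSeq promoters were at hand for 34 members, which had 38 of them. A heptamer was found in 4 of the 38 (10.5%; Fzd7, Wnt11, Wnt5b and Dkk1), against 14.8% of all 32851 promoters. A match describes letters only, and these windows cover a small part of each gene's regulatory sequence.

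Among co-receptors, Lrp5 fell and its partner Lrp6 did not pass the test. Lrp5 (chromosome 19, 3584828 to 3686564) was at 59.1, 103 and 86.9 CPM in HFD PCN, 60.4, 252 and 66.7 CPM in HFD Vehicle, 48.9, 50.3 and 48.7 CPM in HFD and 146, 190.4 and 170.4 CPM in Chow. The HFD libraries lay close together and 3.74-fold below Chow (log2 fold change -1.90, SE 0.13, adjusted p = 1.89e-05), while HFD Vehicle 50 exceeded every other library. Lrp6, which can serve the same function, was at 287, 297 and 349 CPM in HFD PCN, 284, 263 and 252 CPM in HFD Vehicle, 277, 268 and 281 CPM in HFD and 313, 315 and 230.2 CPM in Chow. HFD and Chow overlapped, and the 95% interval of its log2 fold change ran from -0.50 to 0.15 (adjusted p = 0.308).

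Ror1, a receptor of Wnt5a found mostly in embryonic and mesenchymal cells, was at 20.9, 20.1 and 19.3 CPM in HFD PCN, 19.8, 9.74 and 15.6 CPM in HFD Vehicle, 29.7, 26.6 and 25.7 CPM in HFD and 11.5, 7.98 and 9.81 CPM in Chow. It was 2.58-fold higher in HFD than in Chow without overlap (log2 fold change 1.37, SE 0.15, adjusted p = 0.000117). Its relative Ror2 was at 3.32, 2.66 and 4.44 CPM in HFD PCN, 2.99, 4.26 and 2.61 CPM in HFD Vehicle, 2.45, 2.94 and 2.69 CPM in HFD and 1.24, 2.15 and 1.64 CPM in Chow. The HFD values lay above the Chow values, but the test did not pass (log2 fold change 0.56, SE 0.28, adjusted p = 0.116). Ryk, a Wnt receptor with an inactive kinase domain, was at 54.6, 67.4 and 58.98 CPM in HFD PCN, 46.2, 64.01 and 45.4 CPM in HFD Vehicle, 50.6, 54.8 and 60.2 CPM in HFD and 74.7, 68.7 and 51.7 CPM in Chow. HFD and Chow values overlapped (log2 fold change -0.36, SE 0.14, adjusted p = 0.0561).

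**Figure D3:**
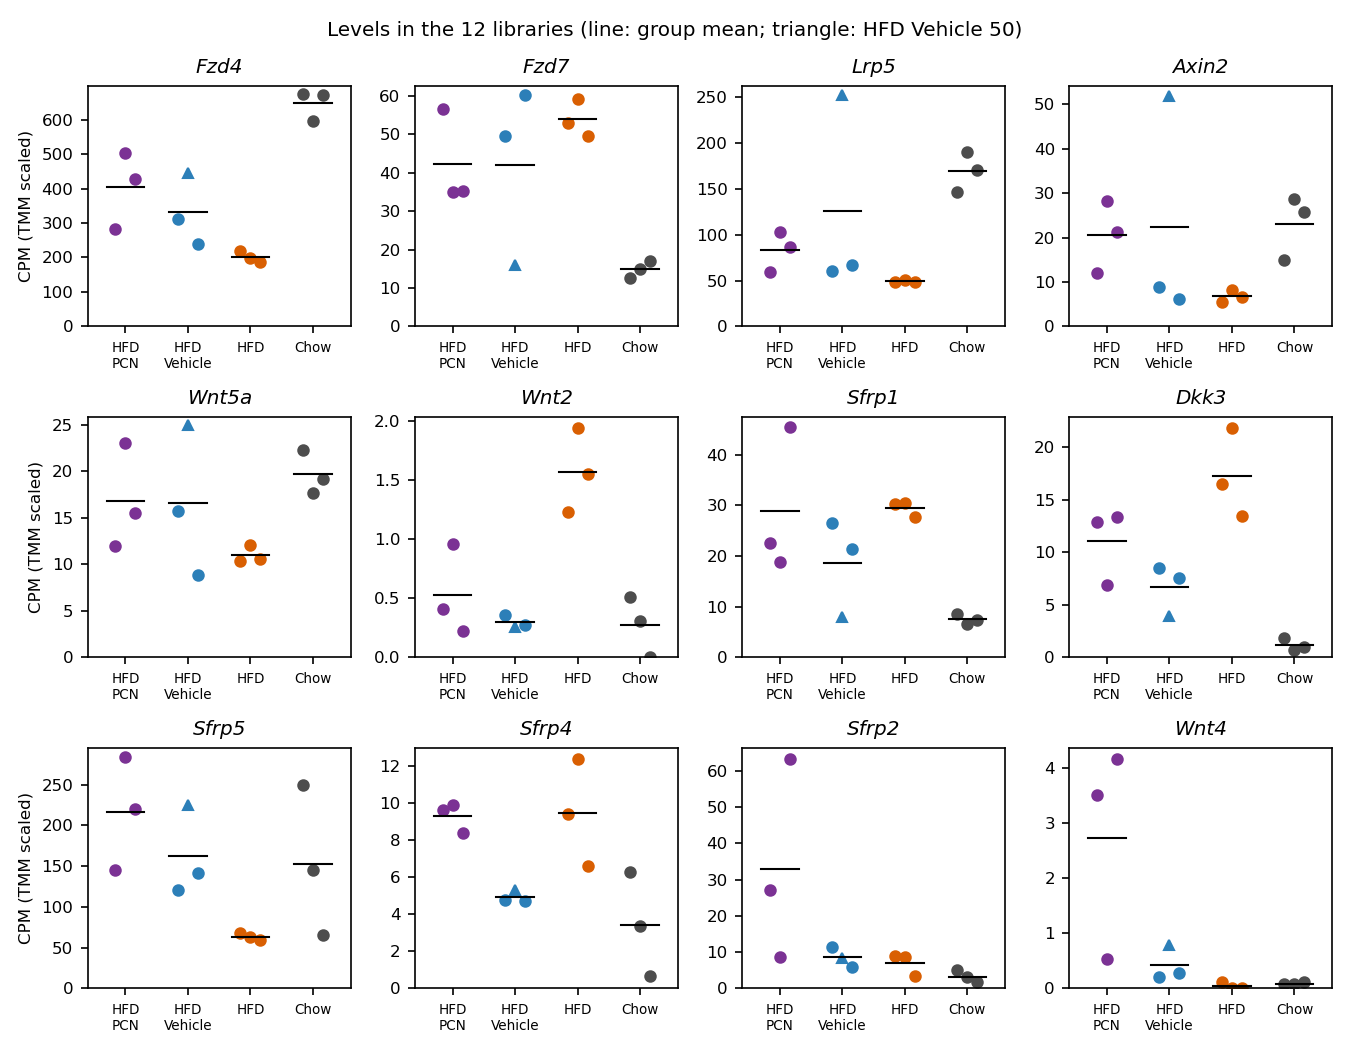
Levels in CPM of 12 members, 1 point per library and a line at the group mean; the triangle is HFD Vehicle 50. Fzd4, Lrp5, Axin2 and Wnt5a have their lowest group mean in HFD and Fzd7, Sfrp1 and Dkk3 in Chow, while the triangle lies near or beyond the Chow values for Fzd7, Lrp5, Axin2, Wnt5a and Sfrp1. Sfrp4 is the panel in which all HFD PCN points lie above all HFD Vehicle points.

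In the R-spondin axis both genes that passed fell in HFD. They were 40% of the 5 tested, against 59.8% of all genes in either direction. Znrf3, a ubiquitin ligase that removes Frizzled receptors, was at 10.2, 13.03 and 13.1 CPM in HFD PCN, 10.4, 18.6 and 8.91 CPM in HFD Vehicle, 8.07, 9.37 and 7.18 CPM in HFD and 14.5, 17.95 and 19.2 CPM in Chow. The HFD libraries lay below the Chow libraries (log2 fold change -1.19, SE 0.17, adjusted p = 0.000605). Lgr4, a receptor of R-spondins, was at 74.7, 122 and 92.3 CPM in HFD PCN, 80.8, 82.7 and 63.7 CPM in HFD Vehicle, 72.6, 62.9 and 62.9 CPM in HFD and 131, 111 and 83.3 CPM in Chow, again without overlap between HFD and Chow (log2 fold change -0.83, SE 0.16, adjusted p = 0.00213). The ligand Rspo1 was at 6.28, 6.17 and 5.45 CPM in HFD PCN, 3.07, 8.44 and 1.195 CPM in HFD Vehicle, 2.38, 3.38 and 0.957 CPM in HFD and 3.14, 2.76 and 2.83 CPM in Chow, and its test did not pass (log2 fold change -0.47, SE 0.40, adjusted p = 0.344). Rspo3 stayed at 1.44 CPM or less (log2 fold change -0.47, SE 0.42, adjusted p = 0.358), with 13.1% of its exon bases overlapping Gm48159. Rnf43, the relative of Znrf3, stayed at 1.22 CPM or less and had no stable direction (log2 fold change 0.11, SE 0.49, adjusted p = 0.857).

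Axin2, both a scaffold for beta-catenin destruction and a gene that beta-catenin switches on in many tissues, was at 11.97, 28.4 and 21.4 CPM in HFD PCN, 8.85, 51.8 and 6.25 CPM in HFD Vehicle, 5.39, 8.26 and 6.52 CPM in HFD and 14.9, 28.6 and 25.8 CPM in Chow. HFD values were 3.75-fold below Chow values with no overlap (log2 fold change -1.91, SE 0.28, adjusted p = 0.000605). The library HFD Vehicle 50 had the highest level of the 12, and the other HFD Vehicle libraries were close to the HFD level.

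The secreted antagonists went the other way for 3 of the 4 that passed. The 4 were 66.7% of the 6 tested, against 59.8% of all genes. Of the 3, Frzb entered the test only through its HFD level, so a difference was built in. Sfrp1 (chromosome 8, 23411502 to 23449632), which binds Wnt ligands, was at 22.6, 18.8 and 45.5 CPM in HFD PCN, 26.6, 8.002 and 21.4 CPM in HFD Vehicle, 30.3, 30.4 and 27.6 CPM in HFD and 8.63, 6.598 and 7.304 CPM in Chow. All HFD libraries exceeded all Chow libraries, 3.604-fold (log2 fold change 1.85, SE 0.13, adjusted p = 1.86e-05). Dkk3, a Dickkopf relative that does not block Lrp5 and Lrp6 as Dkk1 does, was at 12.9, 6.92 and 13.3 CPM in HFD PCN, 8.49, 3.91 and 7.55 CPM in HFD Vehicle, 16.5, 21.8 and 13.5 CPM in HFD and 1.83, 0.6905 and 0.981 CPM in Chow. This was a 13.4-fold difference without overlap (log2 fold change 3.74, SE 0.33, adjusted p = 4.79e-05), and the HFD PCN and HFD Vehicle libraries lay between HFD and Chow.

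Frzb, a frizzled-related protein first known from cartilage, was at 2.25, 0.1596 and 0.337 CPM in HFD PCN, 1.79, 0.08698 and 2.34 CPM in HFD Vehicle, 2.97, 3.45 and 2.45 CPM in HFD and 0.0731, 0 and 0 CPM in Chow. It had 217 reads in HFD libraries and 1 in Chow libraries, a 109-fold ratio whose 95% counting interval was 19.4 to 4323 (adjusted p = 6.56e-05); that interval covers counting error only. Among injected mice, HFD PCN 11 and 27 and HFD Vehicle 50 were at 0.087 to 0.337 CPM and the other 3 libraries at 1.79 to 2.34 CPM. Wif1, too low to be tested, had 57 reads in HFD and 3 in Chow, a 9.54-fold ratio (interval 3.1 to 47.6).

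Sfrp5, described in mouse fat as an adipokine made by adipocytes that opposes Wnt5a, moved in the opposite direction to Sfrp1. Its gene lies on chromosome 19, 42197971 to 42202252. It was at 145, 284 and 221 CPM in HFD PCN, 121, 225 and 141 CPM in HFD Vehicle, 68.4, 62.8 and 59.2 CPM in HFD and 249, 146 and 65.1 CPM in Chow. HFD values lay close together and Chow values spread widely. On the printed scale Chow 19 fell within the HFD range, while on the scale of the fit all Chow values were above all HFD values. The fall passed the test (log2 fold change -1.38, SE 0.38, adjusted p = 0.0139), but not without HFD 38 (adjusted p = 0.0516), and without Chow 8 its log2 fold change was -0.86.

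Sfrp4, reported in human fat as an antagonist that increases in obesity, was at 9.605, 9.895 and 8.38 CPM in HFD PCN, 4.78, 5.31 and 4.73 CPM in HFD Vehicle, 9.41, 12.4 and 6.58 CPM in HFD and 6.29, 3.38 and 0.654 CPM in Chow. It did not pass (log2 fold change 1.30, SE 0.53, adjusted p = 0.0634), but it passed with DESeq2 (adjusted p = 0.0312), with limma-voom (0.0383), in the fit of all 12 libraries (0.0456), with no expression filter (0.00199) and without Chow 8 (0.00896). It also passed by the authors' deposited adjusted p (log2 fold change 1.29, adjusted p = 0.0454). Sfrp2 was at 27.1, 8.72 and 63.2 CPM in HFD PCN, 11.4, 8.26 and 5.98 CPM in HFD Vehicle, 8.81, 8.62 and 3.29 CPM in HFD and 4.97, 2.99 and 1.74 CPM in Chow. It did not pass either (log2 fold change 0.96, SE 0.44, adjusted p = 0.09204), with 16.1% of its exon bases overlapping Gm26771, although it passed with no expression filter (adjusted p = 0.0103), without HFD 38 (0.0221) and without Chow 8 (0.0329).

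Progenitor and fibroblast markers also differed with diet. The 6 genes (Pdgfra, Dpp4, Pi16, Dcn, Col1a1 and Ly6a, none at 0) summed to 2254 to 2671 CPM in HFD and 753 to 1304 CPM in Chow, and 5 of 6 were called higher, with log2 fold changes of 0.46 (Ly6a) to 1.31 (Pi16). Over all genes tested, 29.8% were called higher. Of the 6 tested antagonists, 3 were called higher and 1 lower, 66.7% in either direction against 59.8% of all genes. The part of these markers in the results was not tested.

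Of the 19 members that were not tested with diet, 12 stayed under 0.2 CPM in every HFD and Chow library. The remaining 7 reached 0.2 CPM in at least 1 of those libraries without exceeding 2.18 CPM, the level of Wnt9b in Chow 19. Wnt9b was otherwise at 0.0718 to 0.120 CPM in HFD and at 0.153 and 0.293 CPM in Chow. In the authors' deposited table Wif1 (log2 fold change 2.35, adjusted p = 0.0146) and Wnt9b (log2 fold change -2.36, adjusted p = 0.0174) also passed.

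Genes further down the pathway were examined from lists drawn up by function. Of 16 tested genes of the nuclear complex, which carries the signal of beta-catenin on DNA, 11 fell and 2 rose in HFD, with a median log2 fold change of -0.93. That is 81.2% of the list in either direction, where 59.8% of all genes passed. The TCF factors Tcf7l1 (log2 fold change -2.24, SE 0.18, adjusted p = 3.14e-05) and Tcf7l2 (log2 fold change -1.98, SE 0.24, adjusted p = 0.000234), the co-activator Bcl9l (log2 fold change -2.91, SE 0.29, adjusted p = 8.39e-05) and the co-repressor Tle3 (log2 fold change -1.84, SE 0.15, adjusted p = 3.41e-05) had the smallest p among those that fell. Tcf7 did not pass, and Lef1 was too low to be tested.

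Of 21 tested genes of the cytoplasmic core, 7 fell and 2 rose, with a median log2 fold change of -0.13. The share called was 42.9%, below the 59.8% of all genes, and the count of lower calls was near the background of 30%. Ctnnb1, which encodes beta-catenin, was higher in HFD (log2 fold change 0.73, SE 0.13, adjusted p = 0.00142), and Dvl3, which passes the signal on from Frizzled receptors, was lower (log2 fold change -0.93, SE 0.17, adjusted p = 0.00188). Caprin2 (log2 fold change -0.92) and Btrc (log2 fold change -0.48), a ubiquitin ligase subunit for beta-catenin, were also lower. The other genes that passed as lower were Apc, Apc2, Amer1 and Dvl1, and Fbxw11 passed as higher. Gsk3a, Gsk3b, Axin1, Dvl2, Tnks, Tnks2 and the tested Csnk1 genes did not pass.

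Among 12 tested genes known as Wnt targets in other settings, 4 rose and 1 fell, with a median log2 fold change of -0.10. The share called was 41.7%, below the 59.8% of all genes, and the count of higher calls was near the background of 29.8%. Cd44 (log2 fold change 3.08, SE 0.23, adjusted p = 2.24e-05), Ccnd1 (log2 fold change 2.35, SE 0.18, adjusted p = 2.84e-05) and Ccn4 (log2 fold change 4.03, SE 0.45, adjusted p = 0.000156), and also Fosl1, were higher in HFD, the opposite direction to Axin2. In Chow, Ccn4 was at 0.146 to 0.654 CPM and Fosl1 at 0.0731 to 0.460 CPM. Both entered the test only through their HFD levels, so a rise was built into 2 of these 4 results. Apcdd1, itself an inhibitor of Wnt signalling, was lower (log2 fold change -2.51, SE 0.19, adjusted p = 2.34e-05). Many of these genes respond to other signals too: Cd44 is also an adhesion receptor of leukocytes, and Ccnd1 a cell cycle gene. The part of Wnt or other signals in their levels was not tested. Myc, Nkd1, Nkd2, Tcf7, Twist1, Bambi and Ccn5 did not pass.

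The drug comparison set HFD PCN against HFD Vehicle, with 32 members tested. None of them passed edgeR's test (0% of 16563 genes did), and none passed with DESeq2 or limma-voom or in the authors' deposited table. At an unadjusted p of 0.05, 3 members were reached, against 281 of all genes (1.7%). Without HFD Vehicle 50 these were 8 of 32 members (5.32% of all genes). They were 1 to 4 when any other single library was left out (0.651 to 4.52% of all genes), with 1 without HFD PCN 27 (0.651% of all genes). The 8 were Sfrp4, Axin2, Rspo1, Wnt4, Wnt2b, Ryk, Sfrp5 and Sfrp2, each with a positive log2 fold change and an adjusted p of 0.8. Without HFD Vehicle 50, Wnt4 entered only through its HFD PCN level, so a difference was built into its test. The median log2 fold change of the members was 0.20 against 0.00 over all genes. In 2 members, Sfrp4 and Lrp6, all HFD PCN values exceeded all HFD Vehicle values, as in 3.43% of all genes.

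Sfrp4 (chromosome 13, 19623104 to 19632994) had the smallest p of the members. Its 3 HFD PCN libraries (8.38 to 9.90 CPM) lay above the 3 HFD Vehicle libraries (4.73 to 5.31 CPM) and within the HFD range (log2 fold change 0.89, unadjusted p = 0.00386, adjusted p = 0.9999). Without HFD Vehicle 50 the log2 fold change was 0.98 (adjusted p = 0.8). Sfrp2 reached 27.1 and 63.2 CPM in HFD PCN 5 and 27 and 8.72 CPM in HFD PCN 11, against 5.98 to 11.4 CPM in HFD Vehicle, so the groups overlapped (log2 fold change 1.93, SE 0.68, unadjusted p = 0.0271).

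Wnt4, a ligand best known from kidney and gonad development, had the largest fold difference of the tested members with PCN. With 5, 9 and 5 reads in HFD Vehicle 23, 50 and 55, it could not have entered the test without its HFD PCN reads. A difference was thus in part built into its test. The gene lies on chromosome 4, 137277489 to 137299726. It was at 3.51, 0.532 and 4.16 CPM in HFD PCN, 0.199, 0.783 and 0.272 CPM in HFD Vehicle, 0.112, 0 and 0 CPM in HFD and 0.0731, 0.0767 and 0.109 CPM in Chow. HFD PCN 5 and 27 exceeded all other libraries, while HFD PCN 11 was below HFD Vehicle 50 (log2 fold change 2.79, SE 0.90, unadjusted p = 0.0182). In a test of 32 members and 16563 genes neither Wnt4 nor Sfrp2 passed the adjustment (adjusted p = 0.9999 for both). Dkk3 (log2 fold change 0.72, unadjusted p = 0.0939) and Fzd2 (log2 fold change 0.44, unadjusted p = 0.12) came next, and both overlapped. Fzd2 was at 5.25, 6.44 and 7.48 CPM in HFD PCN, 5.503, 4.18 and 4.24 CPM in HFD Vehicle, 3.495, 5.601 and 4.43 CPM in HFD and 4.02, 2.302 and 0.981 CPM in Chow.

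Mesothelial markers, of the cells that line the abdominal cavity and cover gonadal fat, also differed between these libraries. The 5 genes (Msln, Upk3b, Wt1, Lrrn4 and Krt19, none at 0) summed to 84.7, 58.4 and 45.3 CPM in HFD PCN and 18.0, 48.3 and 9.07 CPM in HFD Vehicle, against 6.64 to 25.7 CPM in HFD and 8.61 to 19.1 CPM in Chow. None of the 5 passed the test with PCN, and in 2 of 5, Lrrn4 and Krt19, the groups did not overlap. Their part in the levels of Wnt4 and Sfrp2 was not tested.

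For other members the intervals were wide. The 95% interval of the log2 fold change with PCN ran from -0.58 to 1.09 for Fzd4, from -2.12 to 0.81 for Lrp5, from -0.48 to 1.25 for Sfrp5 and from -2.17 to 1.84 for Axin2. These ranges include changes of the size seen with diet for Axin2 and Lrp5. Without HFD Vehicle 50 the log2 fold change of Axin2 was 1.45 (unadjusted p = 0.00685, adjusted p = 0.8), against -0.17 with it. That of Lrp5 changed sign, to 0.40 without this library (unadjusted p = 0.144) against -0.66 with it. The values were 0.74 without it (unadjusted p = 0.0397) and 0.39 with it for Sfrp5, and 0.57 (unadjusted p = 0.0842) and 0.26 for Fzd4. Without it 0 of 16873 genes passed.

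The injected controls, HFD Vehicle, were set against uninjected HFD mice to link the 2 tables; injection and table cannot be told apart there. None of 34 tested members passed edgeR's test (0% of 16781 genes did), 7 were reached at an unadjusted p of 0.05 (9.77% of all genes), and limma-voom called none. That count was 13 without HFD Vehicle 55 (15.1% of all genes) and 4 without HFD 30 (3.59% of all genes). It was 6 to 9 without any other single library, with shares of all genes from 2.84 to 17.95% (9 without HFD Vehicle 50, 16.7% of all genes). DESeq2 called Sfrp5 higher (adjusted p = 0.00875) and Wnt2 and Dkk3 lower (adjusted p = 0.00992 and 0.037). The share of all genes that DESeq2 called is not given here, so these calls stand without a background. Without HFD Vehicle 50, edgeR called Sfrp5 higher (log2 fold change 1.05, SE 0.10, adjusted p = 0.01297), as it did 0.578% of all genes. It called Wnt2 lower (log2 fold change -2.28, SE 0.39, adjusted p = 0.0488), as it did 0.416% of all genes. Wnt2, with 9, 3 and 5 reads in HFD Vehicle 23, 50 and 55, entered edgeR's tests here only through its HFD level. A fall was thus built in, with or without HFD Vehicle 50.

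With the whole HFD Vehicle group the log2 fold changes against HFD were 1.43 for Sfrp5, -2.31 for Wnt2, -1.33 for Dkk3, -0.82 for Ror1 and -0.89 for Sfrp4, each with adjusted p = 0.485. All HFD Vehicle values of Sfrp5, Fzd4 and Lrp5 were above all HFD values (13.8% of all genes behaved so). Those of Wnt2, Dkk3, Ror1, Sfrp4, Sfrp1 and Frzb were below (14.2% of all genes). The HFD libraries are shared by this comparison and that of diet.

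**Figure D4:**
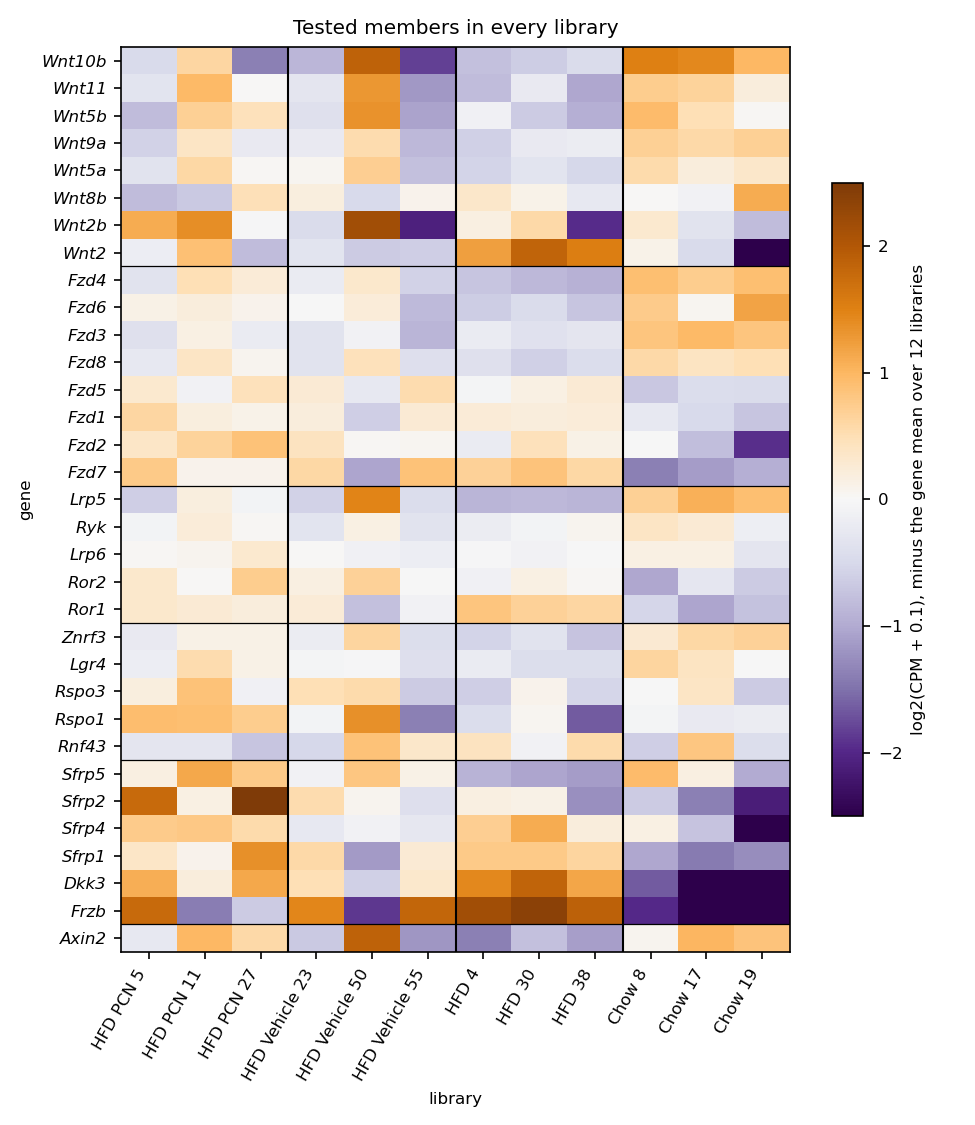
Level of the 33 tested members in each library as log2(CPM + 0.1) minus the gene's mean over the 12 libraries, with rows in the order of roles used above and colours ending at ±2.5. HFD and Chow columns are of opposite colour for most genes, HFD Vehicle 50 resembles the Chow columns for Fzd7, Sfrp1, Frzb and Wnt10b, and the Sfrp2 row is darkest in HFD PCN 27.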

How the data were processed

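The tissue was taken from the series title. Per the labels' protocols, a kit for lipid-rich tissue was used for total RNA, with DNase treatment. The authors deposited 2 tables of whole-number read counts per gene (HFD beside Chow, HFD PCN beside HFD Vehicle, 6 libraries in each), with other columns of their own log2 fold changes and adjusted p-values. HISAT2, HTSeq and DESeq2 on GRCm38 (mm10) are named, per the submitters' processing notes, without versions. Strandedness of the counting is not stated there, so the 3 members for which another gene covers over 10% of their exon bases are marked. Exon lengths came from GENCODE M21, in which all 52 members have the same coordinates.

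Each comparison was fitted on its own 6 libraries with edgeR 4.0.16 in R 4.3.3 (TMM, default expression filter, quasi-likelihood test, Benjamini-Hochberg at 0.05 over all genes), and members were read from that fit. The script was tested on simulated counts. HFD Vehicle against HFD used the 28008 genes in both tables. SE is the log2 fold change over the square root of its F statistic. Non-overlap of groups was counted on the scale of each fit. Ratios for genes with 1 to 3 reads in a group carry a 95% counting interval. The p-values measure the spread between these libraries, which may be technical. Alternatives were DESeq2 1.42.0, limma-voom (limma 3.58.1), 2 other scalings in edgeR (DESeq2 size factors, upper quartile), 2 other filters (none, or 1 CPM in 3 libraries), a fit of all 12 libraries, removal of mitochondrially encoded genes, the authors' adjusted p, and omission of each library.

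Members and lists were chosen with earlier results of these data known. Library values are printed, by rule, for up to 6 members per role with the smallest p in HFD against Chow and the 5 with the smallest p in each other comparison. Of each pathway list, up to 4 genes with the smallest p are given values, as are Wls and Porcn. Some others are named as passing or not, and the rest are only counted.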

Additional observations from a re-analysis of the deposited data

How the results depend on the processing

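With diet, 8 to 12 members were called higher and 11 to 16 lower over the alternatives, with 8 to 12 higher and 12 to 16 lower when 1 library was left out. Upper quartile scaling moved the median of all genes to -0.13 and left 44.0% of calls on the higher side (49.9% with TMM). Ryk passed with upper quartile scaling, with the filter of 1 CPM and without Chow 19, Ror2 without Chow 17 and Lrp6 without Chow 19. Of the named members Rnf43, which passed under no setting, was the one that changed sign: its log2 fold change was 0.11, ran from -0.22 to 0.87 when 1 library was left out, and was below 0 without HFD 38, Chow 8 or Chow 19. With PCN, 0 members were called under every alternative run. For HFD Vehicle against HFD, 0 were called in either direction, but 1 higher and 2 lower with DESeq2, and 0 to 1 higher and 0 to 1 lower when 1 library was left out, the calls coming without HFD Vehicle 50. The causes were not tested. No paired analysis was possible because each of the 12 libraries has a number of its own. Chow libraries and HFD Vehicle 50 were the shallowest, where 3 reads correspond to 0.22 to 0.27 CPM, so levels of the lowest ligands rest on few reads. Whether differences among them were missed at this depth was not tested.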

Other observations

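Wnt ligands need a lipid and a dedicated carrier to leave the cell. Of 8 tested genes of secretion and lipid modification, 6 were higher in HFD than in Chow (29.8% of all genes were) and 1 was lower (30% of all genes), with a median log2 fold change of 0.80 (all genes tested: -0.03). The carrier Wls, which brings Wnt proteins to the cell surface, was higher (log2 fold change 0.77, SE 0.16, adjusted p = 0.00404), as were the retromer subunits that recycle it, Vps29 (log2 fold change 1.14, SE 0.15, adjusted p = 0.000294), Vps26a (log2 fold change 0.84, SE 0.11, adjusted p = 0.0003401) and Vps35 (log2 fold change 0.90, SE 0.13, adjusted p = 0.000574). Porcn, the enzyme that attaches the lipid Wnt ligands need, was lower (log2 fold change -0.76, SE 0.21, adjusted p = 0.0144). Snx3, which works with retromer, was also higher (log2 fold change 0.91). Wls and Porcn were chosen after their values were seen. Retromer subunits also sort many other proteins.

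Of 23 tested genes of the planar polarity and calcium branch, 10 were lower in HFD and 2 higher, with a median log2 fold change of -0.29. The share called was 52.2%, below the 59.8% of all genes. Celsr2, an atypical cadherin, had the largest fall among the 4 with the smallest p (log2 fold change -4.04, SE 0.44, adjusted p = 0.000138), followed by Ankrd6 (log2 fold change -1.59, SE 0.23, adjusted p = 0.000577), Daam2 (log2 fold change -1.31, SE 0.13, adjusted p = 8.85e-05) and Prkca (log2 fold change -1.28, SE 0.17, adjusted p = 0.000319). Of 10 other tested extracellular modulators, 5 were lower and 2 higher, a share of 70%. Gpc4, a heparan sulfate proteoglycan (log2 fold change -1.76, SE 0.15, adjusted p = 3.93e-05), Igfbp4 (log2 fold change -1.22, SE 0.13, adjusted p = 0.000115) and Tspan12, a partner of Fzd4 in norrin signalling (log2 fold change -1.10, SE 0.12, adjusted p = 0.000134), were among those that fell. No gene of these lists passed with PCN or in HFD Vehicle against HFD.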
